A study of Rattus norvegicus with 15 samples.

Results

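Nfat5 and 6 genes of the organic osmolyte response were followed through 15 Affymetrix rat arrays of the subfornical organ, a sensory structure of the forebrain that lies outside the blood-brain barrier. The genes were taken by name, and every probe set annotated to a single one of them was used. Of the 7 genes, 6 had a probe set, giving 10 of the 31099 probe sets on the array. Slc6a12, the betaine carrier, was matched to no probe set and was not analysed here. The tissue came from male Sprague Dawley rats of 10 to 12 weeks, and each array carried RNA pooled from 5 of them. There were 5 arrays each of untreated control, water-deprived and food-deprived rats, so that 25 rats stand behind each group. Food deprivation lasted 48 h by the sample labels. The length of water deprivation is not given in the sources used here, and the design text of the series, read literally, has food withheld for 48 h in all 3 conditions.

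Cells in a hypertonic medium lose water and take up or make small organic osmolytes, which restore their volume without disturbing proteins as salts do. Nfat5, also known as TonEBP, is the transcription factor that switches this programme on by binding a DNA element called TonE. Slc5a3 carries myo-inositol, Slc6a6 taurine and Slc38a2 neutral amino acids into the cell, Akr1b1 (aldose reductase) makes sorbitol from glucose, and Hspa4l is a chaperone of the Hsp110 family first known as an osmotic stress protein. Water deprivation raises the osmolality of blood, to which the subfornical organ is exposed. The comparisons below ask whether transcripts of this programme differed between the water-deprived, food-deprived and control groups.

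All values are deposited signals on a linear scale, and differences are log2 differences of the signal plus an offset of 16, so that the change of dim probe sets is understated. Of the 10 probe sets, 9 passed a filter on low mean signal and were tested with limma within all 21729 probe sets that passed, with Benjamini-Hochberg adjustment and a threshold of 0.05. The arrays correlated with one another at 0.893 to 0.983 over all probe sets. The 5′/3′ signal ratio of Actb and Gapdh at their control probe sets, which reports RNA integrity and labelling length, split the arrays at a mean log2 ratio of -1. Above it were all 5 arrays of food-deprived rats with 2 from water-deprived rats, numbers 1 and 2 (the high set). Below it were all 5 controls with water-deprived arrays 3 to 5 (the low set). Water-deprived array 3 stood apart at a log2 ratio of -2.81, where the rest of the low set ran from -1.67 to -1.24. No set held both control and food-deprived arrays, so between those groups fasting and array set cannot be told apart without the water-deprived arrays. Of 8 markers of subfornical organ neurons, 7 had a probe set and 6 passed the filter, among them the angiotensin receptor Agtr1a at a mean control signal of 176. In bulk tissue, fewer cells of a type and less RNA per cell cannot be told apart.

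After food deprivation, 1 of the 9 tested probe sets differed from control, a probe set of Nfat5 that was lower. In this comparison 8.53% of all tested probe sets passed, 3.76% as lower and 4.77% as higher. The 9 probe sets had a median difference of -0.33 and 2 of them lay above 0, against a median of 0.05 over all tested probe sets. The other probe set of Nfat5, both probe sets of Slc6a6 and that of Hspa4l also had lower means in food-deprived rats but did not pass the test. After water deprivation none of the 9 passed, where 0.0046% of all tested probe sets did. Slc38a2 was at nearly the same mean signal in all 3 groups.

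Nfat5 was represented by probe sets 1398421_at and 1372772_at. The signal of 1398421_at was 519, 356, 369, 379 and 449 in controls 1 to 5. It was 273, 288, 473, 305 and 503 in water-deprived arrays 1 to 5. It was 255, 324, 197, 255 and 235 in food-deprived arrays 1 to 5. Every food-deprived array was thus below the lowest control, while the water-deprived arrays ran from below the controls to within their range. Groups of food-deprived and control arrays that do not overlap were found for 15.4% of tested probe sets, 5.61% with food deprivation lower. The means were 415 ± 68.5 in controls, 368 ± 110.1 after water deprivation and 253 ± 46.1 after food deprivation (SD, n = 5 arrays each).

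The difference of food-deprived from control arrays at 1398421_at was -0.68 (SE 0.18, limma adjusted p = 0.0295), a 1.60-fold lower level. The call did not hold in a limma fit without control 1 (adjusted p = 0.0796), control 5 (0.0593) or food-deprived array 1 (0.0564), 3 (0.0794), 4 (0.056) or 5 (0.061), and the difference stayed between -0.77 and -0.60 whichever single array was left out. With the array set as a term in the fit it was -0.13 (SE 0.26, adjusted p = 0.903). Among the water-deprived arrays, numbers 1 and 2 of the high set averaged 281 and numbers 3 to 5 of the low set averaged 427, but array 4 of the low set was at 305, below every control and inside the food-deprived range. With the 5′/3′ ratio itself as a term in place of the sets, the difference of food-deprived from control was -0.42 (SE 0.18, adjusted p = 0.276). The fit with the ratio was not repeated without water-deprived array 3, which had by far the lowest ratio. Markers of hypothalamic neuroendocrine cells (Avp, Oxt, Pmch, Hcrt, Sim1 and Otp) moved with the same groups. Their summed signal was 998 to 3670 in controls, 323 to 3616 after water deprivation and 248 to 277 after food deprivation. All 6 had a probe set, none was at 0, and 3 of the 4 that were tested were lower after food deprivation. With array set as a term the 4 had a median difference of -0.10 and none passed. The sum was 381 and 323 in the water-deprived arrays of the high set and 3116, 3616 and 1027 in those of the low set. Over arrays of 1 set, the Nfat5 signal went with the mean of the 4 tested markers at r = 0.55 in the high set and opposite to it at -0.64 in the low set. After food deprivation 6 choroid plexus markers had a median difference of 1.03 with 5 above 0, and 7 oligodendrocyte markers a median of 0.65 with 7 above 0, none of them passing. With array set as a term these medians were -1.21 with 0 of 6 above 0 and -0.03 with 3 of 7 above 0. The part of these cells in the Nfat5 difference was not tested.

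The second Nfat5 probe set, 1372772_at, gave 330.1, 329, 292, 353 and 331 in controls. It gave 242, 318, 438, 344 and 357 in water-deprived arrays. It gave 304, 229.9, 267, 244 and 238 in food-deprived arrays. Here 4 of 5 food-deprived arrays were below the lowest control and the fifth was inside the control range. The difference of food-deprived from control was -0.34 (SE 0.13, limma adjusted p = 0.106), 1.26-fold lower and short of the threshold. Over arrays of 1 set the probe sets of Nfat5 followed each other weakly, at r = -0.07 in the 7 high arrays and 0.33 in the 8 low arrays.

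**Figure D1:**
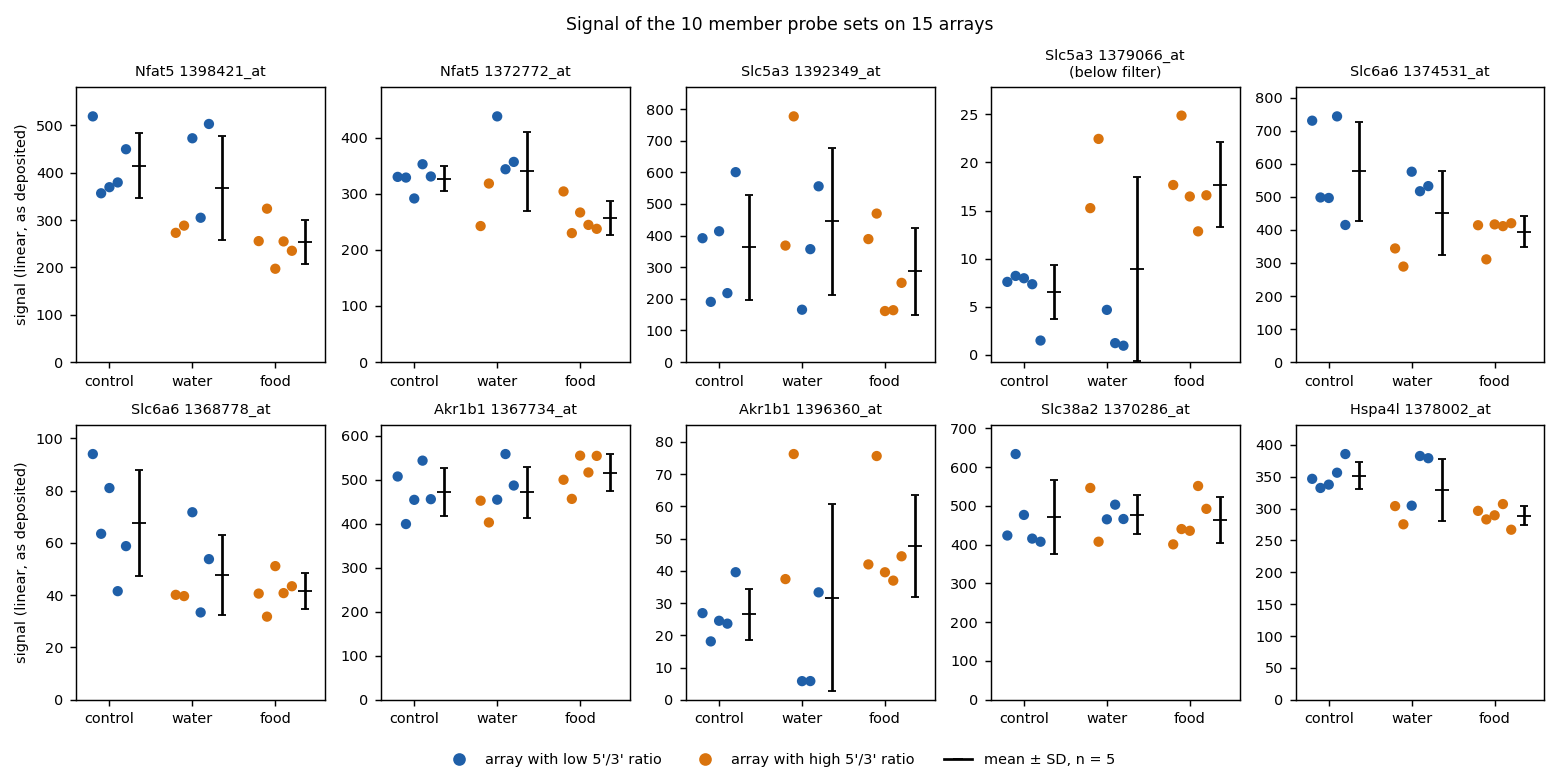
Deposited signal (linear) of each of the 10 probe sets on the 15 arrays, by group, with blue points for arrays of low and orange points for arrays of high 5′/3′ ratio, and the mean ± SD of 5 arrays as a bar. At Nfat5 1398421_at and at Hspa4l the 5 food-deprived arrays lie below all 5 controls, and the 2 orange water-deprived arrays lie with them.

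Of the carriers, Slc5a3 had the widest spread within groups. Its probe set 1392349_at gave 392, 190.5, 414, 218 and 601 in controls. It gave 368, 777, 166, 357 and 556 in water-deprived arrays. It gave 389, 469.7, 161, 164 and 251 in food-deprived arrays. All 3 groups overlapped, and the lowest arrays came from all of them. The highest food-deprived array, at 469.7, was below 1 control and 2 water-deprived arrays. The means were 363 ± 166 in controls, 445 ± 231 after water deprivation and 287 ± 138 after food deprivation (SD, n = 5). The difference of water-deprived from control arrays was 0.24 with a 95% interval of -0.60 to 1.07 (limma adjusted p = 0.915), wide enough to hold a doubling. The difference of food-deprived from control was -0.33 (SE 0.39, adjusted p = 0.646).

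The signal of Slc5a3 varied from array to array together with markers of neighbouring tissue. Against the mean of 6 choroid plexus markers (Ttr, Kl, Folr1, Otx2, Kcne2 and Sostdc1), the secretory epithelium next to the subfornical organ, Pearson's r was 0.895 over the 7 high arrays and 0.975 over the 8 low arrays. It was 0.823 and 0.902 against 4 ependymal markers and 0.795 and 0.858 against 8 markers of meningeal fibroblasts. Against 11 neuronal markers it was -0.849 and -0.782, and against 8 astrocyte markers -0.873 and -0.788. These are descriptions over arrays that share their labelling and scaling. The summed signal of the choroid plexus markers ran from 3428 to 11136 in controls, from 2422 to 16059 after water deprivation and from 6336 to 12895 after food deprivation. Of the 8 listed markers 6 had a probe set, none of them at 0, and all 6 passed the filter. Among 11395 other named genes the pattern most like that of Slc5a3 within both array sets was that of the collagen gene Col8a1 (r = 0.972 and 0.989), followed by the homeobox gene Msx1 and the lysosomal galactosidase Glb1. The part of tissue composition in the Slc5a3 signal was not tested.

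**Figure D2:**
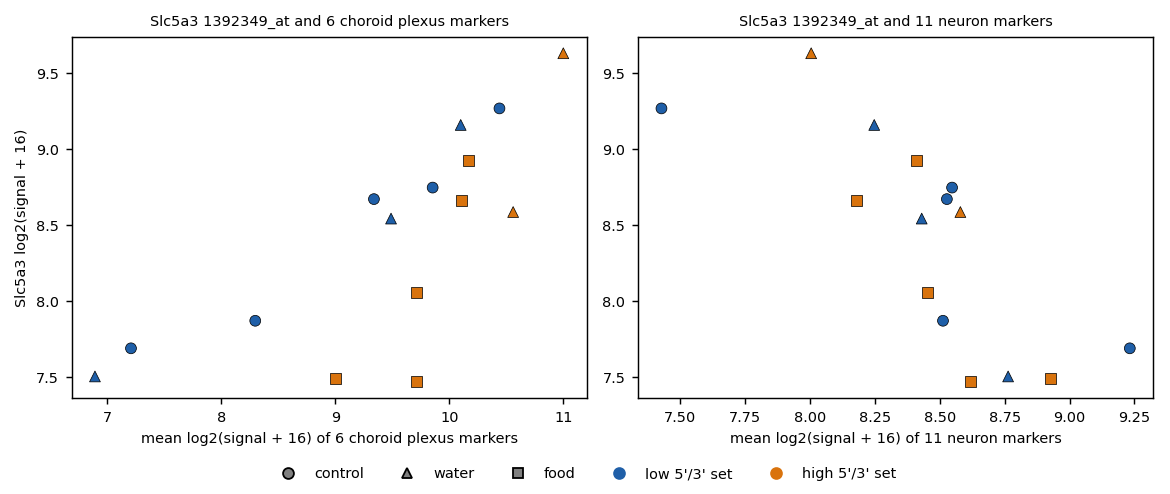
Signal of Slc5a3 1392349_at as log2(signal + 16) against the mean log2(signal + 16) of 6 choroid plexus markers (left) and of 11 neuron markers (right), 1 point per array, with shape for the group and colour for the array set. Slc5a3 is higher where choroid plexus markers are higher and where neuron markers are lower, in both array sets.

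The other Slc5a3 probe set, 1379066_at, was too dim for the filter and was not tested. Its signal was 1.50 to 8.21 in controls, 0.963 to 22.5 after water deprivation and 12.8 to 24.9 after food deprivation. All 7 arrays of the high set, at 12.8 or more, were above all 8 of the low set, at 8.21 or less. In the fit with array set as a term, 15.9% of all tested probe sets passed for array set. The share of probe sets that separated the sets completely is not given here. The brighter probe set of Slc5a3 did not separate the sets, with 4 of 7 high arrays inside the low range.

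Slc6a6 is the taurine carrier, and its promoter is shown because it is the only one of the 5 member promoters at hand that holds the TonE consensus. The 250 bases before the RefSeq start of Slc6a6 lie at chr4:125752252-125752501 on the plus strand of the rat build GRCr8, and the capitals mark the match, which reads on the minus strand and spans 161 to 151 bases before the start.
Slc6a6 promoter: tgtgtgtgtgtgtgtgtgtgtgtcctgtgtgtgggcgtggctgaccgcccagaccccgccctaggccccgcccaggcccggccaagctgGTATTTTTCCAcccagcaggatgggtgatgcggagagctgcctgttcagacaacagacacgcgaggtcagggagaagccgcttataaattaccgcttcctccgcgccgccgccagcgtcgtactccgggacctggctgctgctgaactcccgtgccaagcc
Such a window was at hand in RefSeq for Slc5a3, Slc6a6, Slc6a12, Slc38a2 and Hspa4l. The 6-letter core TGGAAA, searched on both strands, was found in 1 of these 5 and in 19.7% of 33465 rat promoter windows of the same length. The 11-letter TonE consensus, which contains that core, was found in 1 of 5 and in 5.2% of all windows. A match to these letters is a description of the sequence and does not show binding.

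The brighter Slc6a6 probe set, 1374531_at, gave 731, 498, 497, 744 and 415 in controls. It gave 344, 289, 576, 517 and 533 in water-deprived arrays. It gave 414, 311, 417, 411 and 420.3 in food-deprived arrays. All food-deprived arrays were below the control mean and 3 of 5 were below the lowest control, while water-deprived arrays 1 and 2 were the only water-deprived arrays below it. The dimmer probe set, 1368778_at, ran from 41.6 to 94.0 in controls, 33.4 to 71.8 after water deprivation and 31.8 to 51.1 after food deprivation, so that its groups overlapped.

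Neither Slc6a6 probe set passed in the food deprivation comparison, with differences of -0.50 (SE 0.20, limma adjusted p = 0.117) and -0.51 (SE 0.18, adjusted p = 0.0835). After water deprivation the differences were -0.35 and -0.39 (adjusted p = 0.755 and 0.752). In the same fit with array set as a term, the high set was lower than the low set at 1374531_at by -0.75 (SE 0.21, adjusted p = 0.0283), a difference that rests on the water-deprived arrays of both sets. Of all tested probe sets 15.9% passed for array set, 6.44% as lower. With that term the food deprivation difference was 0.25 at 1374531_at, opposite in sign, and -0.25 at 1368778_at, neither passing. The genes most like Slc6a6 within both sets were Fam13b, Pfkfb3 (a regulator of glycolysis) and Ngb (neuroglobin), at r from 0.871 to 0.924.

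Slc38a2, the amino acid carrier known as SNAT2, ran from 407 to 633 in controls, 407 to 546 after water deprivation and 401 to 551 after food deprivation. The groups overlapped almost completely. Its means were 471 ± 94.6, 478 ± 51.3 and 464 ± 58.7 (SD, n = 5). The difference of water-deprived from control was 0.03, with a 95% interval of -0.23 to 0.30, and that of food-deprived from control was -0.01, from -0.28 to 0.26. Its signal went with neuron markers (r = 0.805 in the high and 0.718 in the low set) and opposite to meningeal fibroblast markers (-0.832 and -0.796). Arid4b, Ivns1abp and Hs6st2 had the most similar pattern, at r from 0.885 to 0.937.

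Akr1b1, which makes sorbitol, had a bright and a dim probe set. The bright one, 1367734_at, ran from 399 to 543 in controls, 403 to 558 after water deprivation and 456 to 554 after food deprivation. The groups overlapped, with 2 food-deprived arrays and 1 water-deprived array above the highest control. Its differences from control were -0.003 after water deprivation (SE 0.10) and 0.13 after food deprivation (SE 0.10, limma adjusted p = 0.457). The dim one, 1396360_at, gave 18.1 to 39.6 in controls, 5.78 to 76.2 after water deprivation and 37.0 to 75.6 after food deprivation. Its food deprivation difference of 0.57 (SE 0.32, adjusted p = 0.276) did not pass, and with array set as a term it was -0.72. The array set difference itself passed at 1396360_at, at 1.30 higher in the high set (SE 0.34, adjusted p = 0.0206), beside 9.49% of all tested probe sets. Maob, Lgals8 and N4bp2 were most like the bright probe set, at r from 0.837 to 0.876.

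Hspa4l, the Hsp110-family chaperone, gave 347, 332, 338, 356 and 386 in controls. It gave 304, 275, 305, 383 and 379 in water-deprived arrays. It gave 297, 283, 289.5, 307 and 267 in food-deprived arrays. Food-deprived arrays were below all controls, as in 5.61% of tested probe sets. The water-deprived arrays divided into 3 inside the food-deprived range and 2 within the control range. The difference of food-deprived from control was -0.27 (SE 0.096, limma adjusted p = 0.0872), 1.21-fold lower and short of the threshold. With array set as a term it was 0.004 (SE 0.14). Water-deprived arrays of the low set averaged 355 and those of the high set 289.7, with array 3 of the low set at 305. Clns1a, Znrd2 and Hook2 had the most similar pattern, at r from 0.769 to 0.870.

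**Figure D3:**
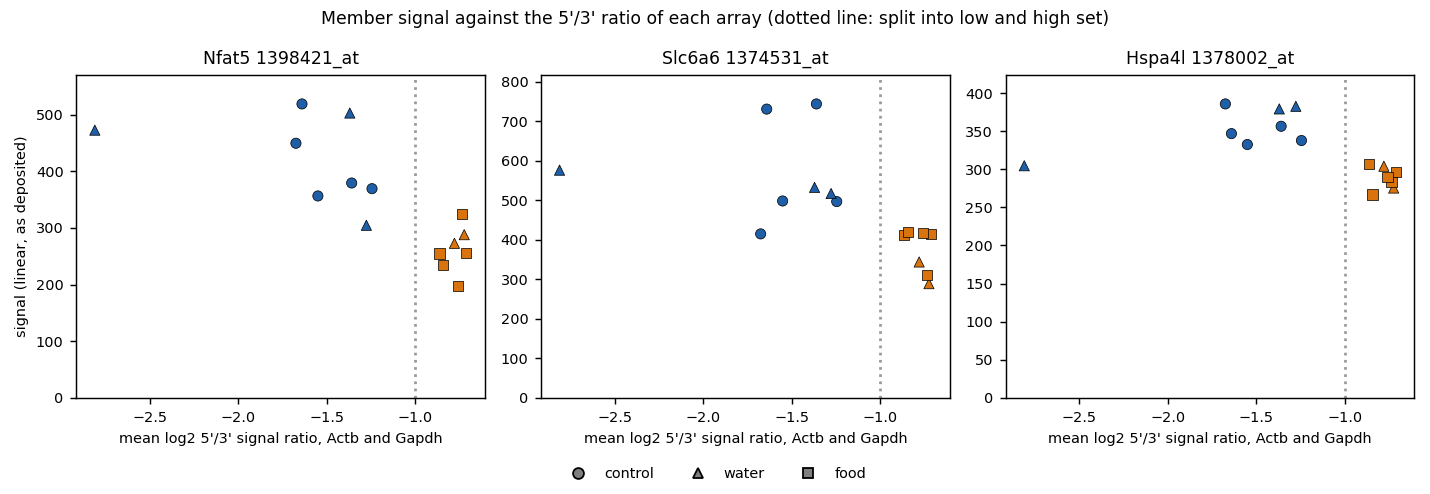
Deposited signal of Nfat5 1398421_at, Slc6a6 1374531_at and Hspa4l 1378002_at against the mean log2 5′/3′ signal ratio of Actb and Gapdh on each of the 15 arrays, with shape for the group, colour for the array set and a dotted line at the split of -1. Of the 7 arrays to the right of the line, 6 are below all 8 arrays to its left at Nfat5 and at Hspa4l, and 5 at Slc6a6.

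How many probe sets passed after food deprivation depended on the arrays in the fit. When the 10 control and food-deprived arrays were fitted alone, 6 of the 9 probe sets passed by limma where 19.3% of all tested probe sets did. Of the 6, 5 were lower (both of Nfat5, both of Slc6a6 and that of Hspa4l, adjusted p = 0.00531 to 0.048) beside 7.44% of all probe sets, and 1 was higher (Akr1b1 1396360_at, adjusted p = 0.0336) beside 11.8%. In the fit of all 15 arrays with array set as a term, 0 of the 9 passed and 0 of 21729 probe sets passed. None of the 9 had an unadjusted p below 0.05, where 8.65% of all tested probe sets did.

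**Figure D4:**
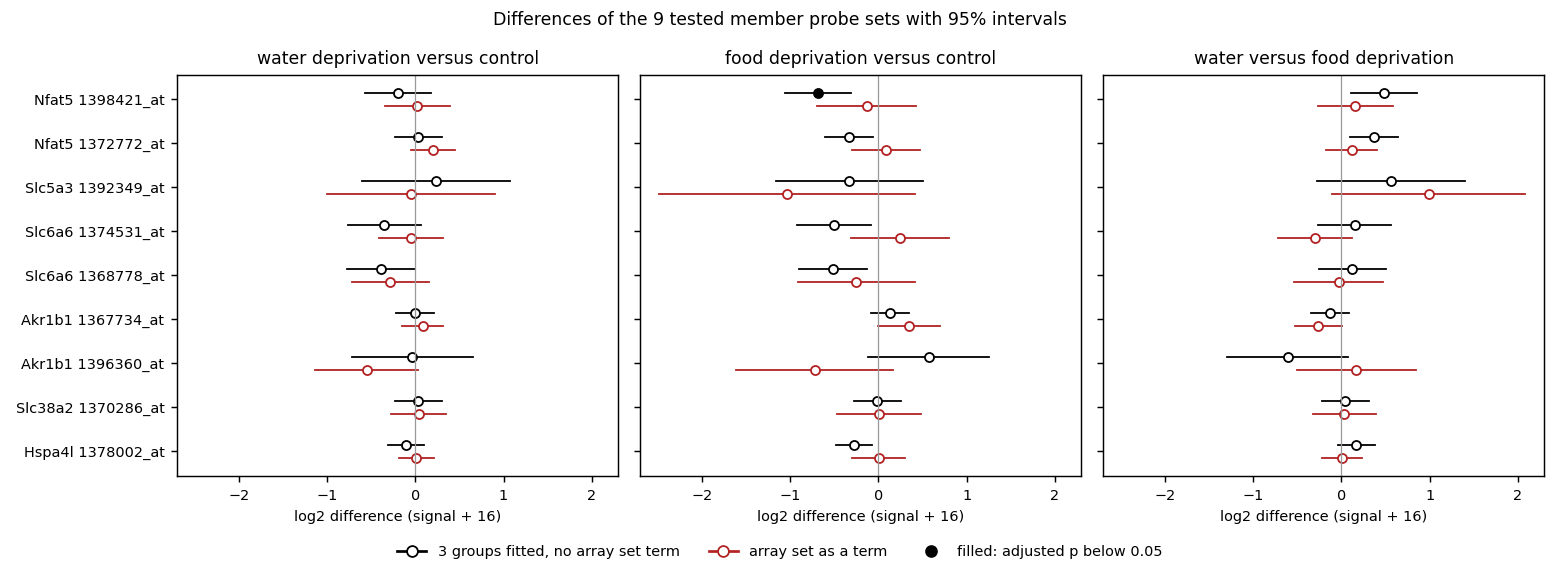
Log2 difference (signal + 16) with 95% interval for the 9 tested probe sets in the 3 comparisons, in black from the fit of the 3 groups and in red with the array set as a term. The 1 filled point is Nfat5 1398421_at after food deprivation, at -0.68, and its red counterpart lies at -0.13.

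Thirst was compared with the control state at every member. By limma, 0 of 9 passed. The unadjusted p was below 0.05 at 1 of them, Slc6a6 1368778_at, and at 6.5% of all tested probe sets. The differences ran from -0.39 at Slc6a6 1368778_at to 0.24 at Slc5a3 1392349_at, and 3 of 9 were above 0. Within the low set, where 3 water-deprived arrays stood against 5 controls, they were 0.02 and 0.20 at Nfat5, -0.05 at Slc5a3, -0.05 and -0.28 at Slc6a6, 0.04 at Slc38a2, 0.08 and -0.55 at Akr1b1 and 0.009 at Hspa4l, none passing. The 95% intervals of the 3-group fit exclude a doubling at 8 of the 9 probe sets but not at Slc5a3.

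Water-deprived rats were also set against food-deprived rats, and 0 of 9 probe sets passed by limma where 0.152% of all did. The unadjusted p was below 0.05 at 2 of the 9, both of Nfat5, and at 15.8% of all tested probe sets. The Nfat5 differences were 0.48 (SE 0.18, limma adjusted p = 0.201) and 0.37 (SE 0.13, adjusted p = 0.177). Slc5a3 differed by 0.56 (SE 0.39), Hspa4l by 0.17 (SE 0.096) and Slc38a2 by 0.04 (SE 0.13). Within the high set, where 2 water-deprived arrays stood against 5 food-deprived ones, the Nfat5 differences were 0.16 and 0.12, that of Hspa4l was 0.005 and that of Slc5a3 was 0.99, none passing beside 0.377% of all tested probe sets. This comparison and the others share groups of arrays, and their values are not independent of each other.

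Around these members, 85 genes of osmolyte handling and cell volume were read in 5 lists by their brightest probe set, and 69 of them were tested. After food deprivation 3 of the 69 passed, 2 higher and 1 lower, where 5.73% of all tested genes did. Their median difference was 0.05, with 42 of 69 above 0.

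In the list of osmolyte synthesis and breakdown, 1 of 12 tested genes was lower and none higher after food deprivation. This was Isyna1, inositol-3-phosphate synthase, which makes the precursor of the myo-inositol that Slc5a3 carries. It gave 84.0, 80.1, 91.4, 89.0 and 120.9 in controls, 44.1, 72.0, 66.8, 99.2 and 82.0 in water-deprived arrays and 66.9, 67.5, 53.2, 43.7 and 29.7 in food-deprived arrays. All food-deprived arrays were below the lowest control, as in 5.61% of tested probe sets, and the water-deprived arrays spanned both ranges. Its difference was -0.70 (SE 0.19, limma adjusted p = 0.0317), with array set as a term -0.27 (adjusted p = 0.796), and with the 5′/3′ ratio as a term -0.67 (adjusted p = 0.173). Its call did not hold without control 1, 3, 4 or 5 or without food-deprived array 3, 4 or 5 (adjusted p = 0.0527 to 0.0723).

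In the list of relatives and regulators of Nfat5, 1 of 20 tested genes was higher and none lower. Ddx17, an RNA helicase, gave 69.6 to 92.8 in controls and 164 to 194 after food deprivation at its brighter probe set, a difference of 0.97 (SE 0.22, adjusted p = 0.0164). Its water-deprived arrays were at 189 and 153 in the high set and at 52.0, 79.4 and 91.1 in the low set, and with array set as a term the difference from control was -0.10 (adjusted p = 0.913). The other probe set of Ddx17 differed by -0.33 (adjusted p = 0.245), so that its probe sets disagreed in sign. The other 19, the calcineurin-dependent relatives Nfatc1 to Nfatc4 among them, did not pass at their brightest probe set. At another probe set Spag9 passed at -1.09 (SE 0.20, limma adjusted p = 0.00602), beside 8.53% of all tested probe sets. Akap13 did so at -0.63 (SE 0.18, adjusted p = 0.0464) and Rac1 at 0.65 (SE 0.19, adjusted p = 0.0459). Further probe sets of Spag9 differed by -0.13 and 0.64 (adjusted p = 0.584 and 0.0584), so that its probe sets also disagreed in sign.

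Among other genes known to be induced by hypertonicity, 1 of 13 was higher and none lower. Slc14a2, a urea carrier known from the kidney, gave 20.9 to 30.7 in controls and 37.9 to 60.6 after food deprivation, a difference of 0.59 (SE 0.13, adjusted p = 0.0138). Its other tested probe sets differed by -0.10 and 0.29 (adjusted p = 0.708 and 0.195), and with array set as a term the difference was 0.28 (adjusted p = 0.691). None of the 10 tested carriers of other osmolytes and none of the 14 tested genes of cell volume control passed at the brightest probe set. The nearest at that probe set were the GABA and taurine carrier Slc6a13, at 0.69 (SE 0.25, adjusted p = 0.0944), and Lrrc8b, a subunit of the volume-regulated anion channel, at -0.28 (SE 0.15, adjusted p = 0.249). The related gene Lrrc8a passed at another of its probe sets, at -1.03 (SE 0.25, limma adjusted p = 0.0217). A further probe set of Lrrc8a was at -0.04 (SE 0.11, adjusted p = 0.858). Every food-deprived array was above the highest control at Slc6a13, as in 9.84% of tested probe sets. Slc6a13 was dim, with mean signals of 18.4 in controls, 19.0 after water deprivation and 37.7 after food deprivation. It passed the filter only through the food-deprived arrays, so its difference and lack of overlap are no test of it.

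After water deprivation 0 of the 69 genes passed by limma, where 0.00869% of all tested genes did. Of the 69, 4 had an unadjusted p below 0.05, beside 6.5% of all tested probe sets. The largest difference was at Ccl2, a chemokine that Nfat5 is known to regulate. It gave 28.8, 15.03, 16.5, 33.9 and 43.5 in controls and 47.2, 49.1, 112.6, 59.2 and 68.96 in water-deprived arrays. Every water-deprived array was above the highest control, as in 0.373% of tested probe sets. Ccl2 was picked for this lack of overlap, so that the share is no test of it. The difference of 0.93 (SE 0.21, limma adjusted p = 0.386) did not pass. In food-deprived arrays Ccl2 gave 23.0 to 39.0, and its water deprivation level was above this by 0.84 (SE 0.21, adjusted p = 0.0876).

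Others that came nearest after water deprivation were Gdpd5 at -0.28, a phosphodiesterase that degrades the osmolyte glycerophosphocholine, and the small heat shock protein Hspb1 at -0.43 (both adjusted p = 0.752). Between water and food deprivation 0 of 69 passed, where 0.0956% of all tested genes did. Of the 69, 12 had an unadjusted p below 0.05, beside 15.8% of all tested probe sets. Fyn, a kinase upstream of Nfat5, was likewise picked for its lack of overlap, found in 2.05% of tested probe sets. It gave 177 to 266 in water-deprived and 299.7 to 392 in food-deprived arrays, a difference of -0.56 (SE 0.17, limma adjusted p = 0.134). The other tested probe set of Fyn differed by -0.29 (SE 0.17, limma adjusted p = 0.418).

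**Figure D5:**
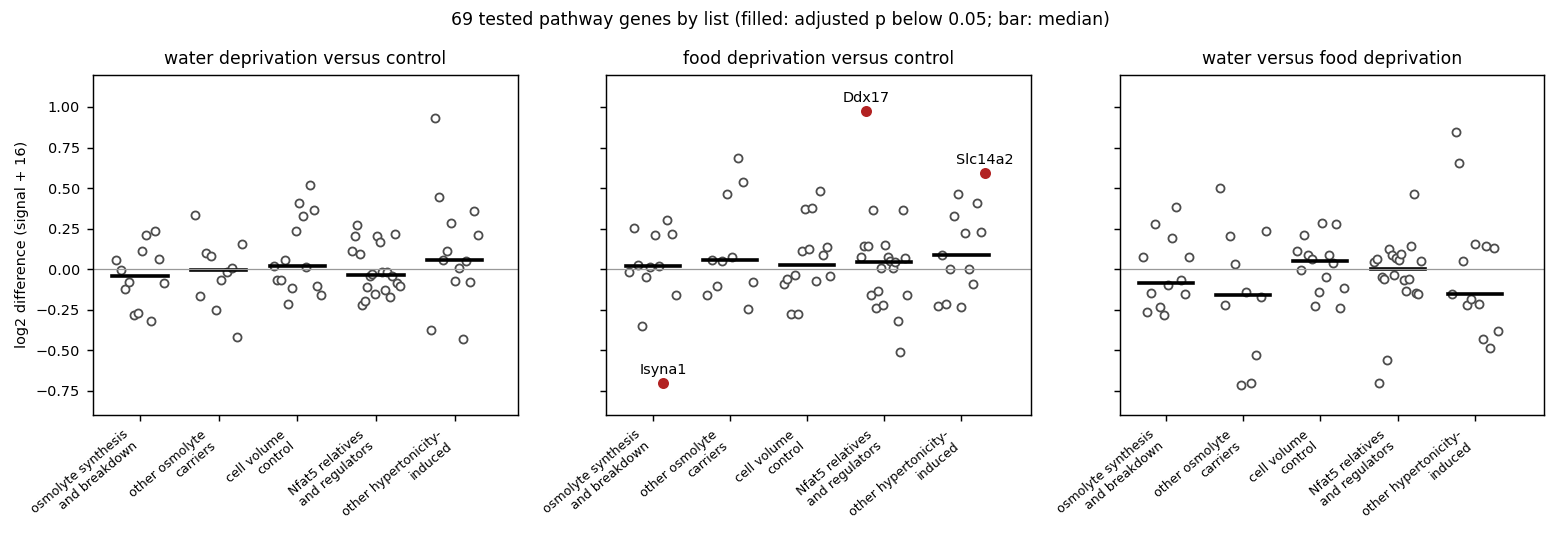
Log2 difference (signal + 16) of the 69 tested genes of the 5 lists in the 3 comparisons, 1 point per gene, with a bar at the median of each list and filled points where the adjusted p was below 0.05. The only filled points are Isyna1, Ddx17 and Slc14a2 after food deprivation, and the medians of the lists lie between -0.16 and 0.09.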

How the data were processed

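The authors made linear signal intensities, 1 for each probe set, with GCOS 1.2 per the submitters' processing notes. These notes state neither the algorithm nor the scaling target. The authors' values were used without further normalization. Probe sets were named by the annotation of the array, where 20826 have 1 gene symbol, 436 have several and 9780 have none, and the symbols were checked against RefSeq. Of the 31099 probe sets 57 are controls. Tests were run on probe sets with a mean log2 value above 5.11, the 30th percentile.

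The 3 groups were fitted together with limma 3.58.1 in R 4.3.3, with 12 residual degrees of freedom, a mean-dependent prior variance and two-sided tests. Arrays give no counts, and their number limits the precision. A term for the array set leaves 11 residual degrees of freedom. Plots were made in matplotlib 3.10.9 with pandas 2.3.3 and numpy 2.4.6 under Python 3.11.15. The fit was tested on simulated data.

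All 7 members were to be named. From each of the 5 lists of related genes up to 4 genes that passed, or else the 2 with the smallest p, could be named, and Ccl2 and Fyn were picked from these for their lack of overlap. Similar patterns are the 3 genes with the highest value of the lower of 2 correlations, one within each array set. The members, lists, array sets and alternatives were chosen with earlier results of these data known. No 2 arrays held identical values. Choroid plexus, ependymal, meningeal, hypothalamic, neuronal, glial and vascular marker lists, 11 in all, were read beside the members.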

Additional observations from a re-analysis of the deposited data

Results flagged for a closer look

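Of 30 sets of 5 arrays (10 probe sets in 3 groups), 3 held an array far from the other 4, where chance gives about 1 in 20. At Slc6a6 1374531_at, food-deprived array 2 was lowest at 311 against 411 to 420.3 in the other 4, a gap of 0.929 of the range of the group on the log2 scale. At Akr1b1 1396360_at the same array was highest at 75.6 against 37.0 to 44.5, a gap of 0.757. Control 5 was lowest at the dim Slc5a3 1379066_at, at 1.50 against 7.35 to 8.21, a gap of 0.888.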

How the results depend on the processing

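Alternatives were offsets of 1 and 64, median centring, quantile normalization, other filters, no variance trend, array weights, fewer arrays and added terms. After food deprivation, 1 member probe set and 3 related genes passed in the main fit. Array weights called 5 and 11. The 10 arrays compared called 6 and 7, beside 19.3% of all tested probe sets. The array set term, the 5′/3′ ratio term and the array set with the replicate block each called 0 and 0. Same-numbered arrays correlated at -0.36 to 0.37 after removing group means. Differently numbered arrays were not set beside them, so whether replicate numbers pair the arrays cannot be told from these values. With the replicate block alone 0 members passed (Nfat5 1398421_at at -0.68, limma adjusted p = 0.0616). With the 5′/3′ ratio term the differences of the called genes were -0.42 at Nfat5 1398421_at, -0.67 at Isyna1, 0.51 at Ddx17 and 0.43 at Slc14a2. Leaving out 1 array gave 0 to 2 members and 2 to 4 related genes, and with the array set term too 0 and 0. Between water and food deprivation, where none passed, array weights called 3 and 10 (Nfat5 1398421_at at 0.68), and leaving out 1 array gave 0 to 1 and 0 to 5. The 1 and the 5 came without water-deprived array 1, and 2 related genes passed without array 2. The share of all probe sets passing with array weights or without 1 array is not given here. The counts of those fits are thus not read as particular to these genes. No alternative called a member or related gene after water deprivation. Without control 4 or water-deprived array 3, Slc6a6 1368778_at passed after food deprivation (adjusted p = 0.0411 and 0.0456), and without water-deprived array 1 Nfat5 1372772_at did (0.0488). After food deprivation Nfat5 1398421_at turned to 0.080 with the array set term and the replicate block, and to 0.084 with that term and without water-deprived array 4. Ddx17 turned to -0.10 with the array set term and -0.14 with the block too, and with that term and without 1 array, in 13 of 15 cases, to between -0.24 and -0.061, including -0.15, -0.069, -0.12, -0.079, -0.23, -0.098, -0.090 and -0.070. Of members not called after food deprivation, Nfat5 1372772_at, Slc6a6 1374531_at, Akr1b1 1396360_at, Hspa4l and Slc38a2 changed sign with the array set term, and Slc38a2 also under quantile normalization, under array weights and without 1 array in 4 of 15 cases. The causes were not tested.

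With 5 arrays per group, the interval of the water deprivation difference at Slc5a3 includes a doubling. Without detection calls, dim probe sets (Slc5a3 1379066_at, Akr1b1 1396360_at) have no stated floor. Fasting and array set are told apart only through the 2 and 3 water-deprived arrays of each set.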
